A study of Caenorhabditis elegans with 3 samples.

Results

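The respiratory chain genes described here were the rows placed on the mitochondrial genome, together with nuclear rows whose gene name marks a subunit of a respiratory complex (names beginning nuo-, cco-, cox-, atp-, asb-, asg-, sdha-, sdhb-, sdhd- or ucr-, plus gas-1, lpd-5, isp-1, cyc-1, mev-1 and cyc-2.1). This gave 44 genes of 45343 features, 14 on the mitochondrial genome and 30 in the nucleus. The rule reads names and positions, not levels. RNA came from whole animals of the nematode Caenorhabditis elegans, in cultures synchronised by hypochlorite treatment of gravid adults and collected as L4 larvae. The 3 strains were the wild type N2, strain ZG24 carrying ahr-1(ia03) and strain CZ2485 carrying ahr-1(ju145), both alleles of the aryl hydrocarbon receptor gene, and no treatment was named. The ahr-1 transcript itself was low in every library, at an FPKM of 0.664, 0.699 and 0.569 in that order of strains, so its level does not check the labels. Each strain gave 1 messenger RNA library, so no value below carries a replicate error, no difference was tested, and each comparison is one library against another.

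The respiratory chain passes electrons from NADH and succinate to oxygen and uses the energy to pump protons, which drive ATP synthase. Complex I oxidises NADH, complex II oxidises succinate, complex III hands electrons to cytochrome c, complex IV reduces oxygen, and complex V is the ATP synthase. Complexes I, III, IV and V are built from products of both genomes, and complex II comes from nuclear genes alone. The mitochondrial genome is small, circular and present in many copies per cell, and its transcripts are made by a dedicated polymerase and cut out of longer precursors. In the worm its copy number is known to increase strongly as the germ line grows during larval and adult life.

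Levels are FPKM, always listed in the order wild type, ia03, ju145. FPKM is the number of fragments scaled to the length of a feature and to the mapped fragments of its library. A difference is the log2 ratio of FPKM + 1, and a size of at least 2-fold (1 on that scale) is used as the limit of a difference of size. Genes were measured where the authors' status was OK and an FPKM of at least 1 was reached in either library. All 44 genes were above 0 in all 3 libraries. By the status rule 39 entered ia03 against wild type and 40 entered ju145 against wild type. The atp-2, atp-5, isp-1 and ucr-2.1 genes had the status FAIL for both mutants and cyc-2.1 for ia03, so their values are given without entering counts. The files hold no read totals. Where the lowest FPKM values cluster, 1 fragment in the ia03 library was worth 0.811 of its value in wild type, and in the ju145 library 0.930, which, if these values are single fragments, would put their depths at 1.23 and 1.08 times that of wild type.

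The mitochondrial rows were 12 protein genes and 2 ribosomal RNA genes. Complex I had ND1 (MTCE.11), ND2 (MTCE.16), ND3 (MTCE.34), ND4 (MTCE.25), ND4L (MTCE.4), ND5 (MTCE.35) and ND6 (MTCE.3), complex III had CYTB (MTCE.21, ctb-1 in the files), complex IV had COX1 (MTCE.26), COX2 (MTCE.31) and COX3 (MTCE.23), and complex V had ATP6 (MTCE.12). In the coordinates of the files, counted from 1, COX1 spans 7827 to 9428 of MtDNA, COX2 9649 to 10348, COX3 5678 to 6449, CYTB 4504 to 5621, ND4 6506 to 7808 and ND2 3389 to 4269. No source used here names the genome build, but these spans equal those of the WBcel235 annotation. The shorter ribosomal RNA gene (s-rRNA, MTCE.7) spans 898 to 1593 and the longer one (l-rRNA, MTCE.33) 10403 to 11354. The other 6 genes share a span in pairs in the files. ND6 and ND4L lie within 113 to 783, ND1 and ATP6 within 1763 to 3235, and ND3 and ND5 within 11356 to 13272. The annotation places the genes of each pair end to end, so the split of fragments between partners is uncertain.

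In wild type the transcripts of complexes III, IV and V stood highest among the mitochondrial genes and those of complex I lower. COX3 had an FPKM of 6986, ATP6 5262, CYTB 5223, COX2 3649 and COX1 3061, and these 5 were among the 100 highest features of the library. ND1 had 1589, ND6 1310, ND3 1163, ND4L 638, ND5 585, ND4 524 and ND2 107. The ribosomal RNAs were listed at 75.1 for s-rRNA and 32.8 for l-rRNA in these messenger RNA libraries. From ND2 to COX3 the protein genes covered a 65.1-fold range.

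**Figure D1:**
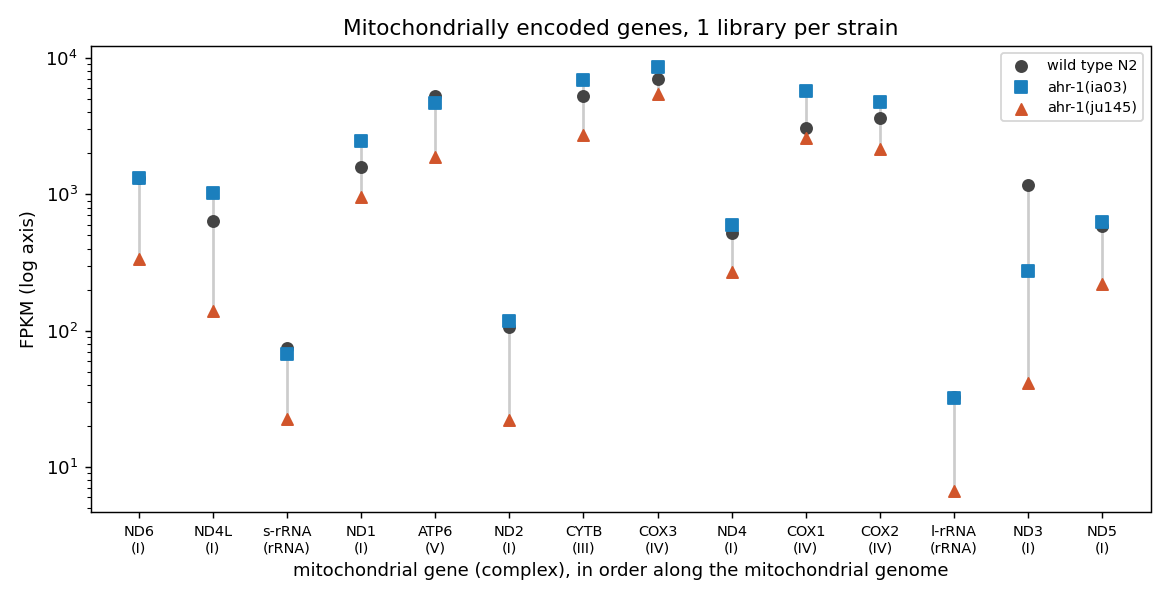
FPKM (log axis) of the 14 mitochondrially encoded genes in wild type, ia03 and ju145, 1 library each, in order along the mitochondrial genome with the complex in brackets. The ju145 value is the lowest of the 3 for every gene, from COX3 at 5475 down to l-rRNA at 6.68.

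The first question was how the mitochondrial transcripts of each mutant stood against wild type. In the ju145 library all 14 lay below wild type, beside 71.7% of all measured features and 62% of those with a wild type FPKM of at least 100. In the ia03 library 9 lay above wild type and 5 below, beside 52.5% of all features and 61.7% at that level below it. At least 2-fold lower in ju145 were 8 of 14, beside a background of 3.54% of all measured features. Among features with a wild type FPKM of at least 100 the share was 4.32%. Of the 8 mitochondrial genes whose span overlaps no other feature, 3 passed, which were ND2 and the 2 ribosomal RNAs. ND2 was thus the only protein gene among them to pass. Of the 11 with at least 500 nt of exon, 5 passed, which were ND2, ND5, ATP6 and the 2 ribosomal RNAs. At least 2-fold lower in ia03 was 1 of 14 (ND3), beside 4.26% of all features and 8.52% of those at FPKM 100 or more. At least 2-fold higher in ia03 were 0 of 14, beside 2.52%, or 0.172% at that level, and in ju145 also 0, beside 1.36%, or 0.17%. The median log2 ratio was -1.45 in ju145 and 0.16 in ia03, where the medians of all measured features were -0.18 and -0.02.

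By their median, the complex I transcripts differed most in ju145. Among them only ND2 and ND4 have a span of their own in the files, and their log2 ratios in ju145 were -2.22 and -0.96. ND2, which encodes a membrane subunit of the proton-pumping arm, had an FPKM of 107, 117 and 22.3, a log2 ratio of -2.22 in ju145. ND4L had 638, 1026 and 140, a log2 ratio of 0.69 in ia03 and -2.18 in ju145. ND6 had 1310, 1309 and 337, a log2 ratio of -1.95 in ju145 with no difference of size in ia03. The wild type and ia03 libraries were thus close for ND2 and ND6, and ju145 stood apart.

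ND5 had 585, 629 and 221 (a ratio of 0.378 in ju145). ND4 had 524, 600 and 269 (log2 ratio -0.96 in ju145), just inside the 2-fold limit. ND1 had 1589, 2455 and 962, so that it was higher in ia03 (log2 ratio 0.63) and lower in ju145 (-0.72). The ND genes therefore spread widely in ju145, from -0.72 for ND1 to -4.78 for ND3.

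ND3 was the one mitochondrial gene with a difference of size in both mutants. Its FPKM was 1163, 275 and 41.5, which is 0.236 and 0.0357 of the wild type level. ND3 has 336 nt of exon and shares its span with ND5, which has 1582 nt. The ND3 level was 1.99, 0.437 and 0.187 times that of ND5 in the 3 libraries. With fragments of both genes pooled by length, the log2 ratio was -0.28 in ia03 and -1.85 in ju145, so the lower value in ia03 fell inside the 2-fold limit and the lower value in ju145 did not. Pooled in the same way, ND6 with ND4L had an FPKM of 1075, 1210 and 268, and ND1 with ATP6 had 3088, 3370 and 1329, so that both pairs were more than 2-fold lower in ju145 than in wild type.

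Complex IV transcripts, which encode the catalytic core of cytochrome c oxidase, differed least in ju145. COX1 had an FPKM of 3061, 5732 and 2572, a log2 ratio of 0.90 in ia03 and -0.25 in ju145. COX3 had 6986, 8549 and 5475, with log2 ratios of 0.29 and -0.35, and COX2 had 3649, 4769 and 2162, with 0.39 and -0.75. For all 3 genes ia03 was the highest library and ju145 the lowest, and none passed the 2-fold limit in either mutant.

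CYTB, the cytochrome b of complex III, had 5223, 6938 and 2741, with log2 ratios of 0.41 and -0.93. ATP6, a membrane subunit of the proton channel of ATP synthase, had 5262, 4698 and 1862, with -0.16 and -1.50. The ribosomal RNA genes were also lowest in ju145. s-rRNA had 75.1, 67.4 and 22.7 and l-rRNA had 32.8, 31.9 and 6.68, with log2 ratios in ju145 of -1.68 and -2.14.

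By complex, the median log2 ratio of the mitochondrial genes in ju145 was -1.95 for the 7 genes of complex I and -0.35 for the 3 of complex IV, with single values of -0.93 for complex III and -1.50 for complex V. In ia03 the corresponding values were 0.13, 0.39, 0.41 and -0.16. Complex I also holds the shortest mitochondrial genes and most of those with a shared span, so complex cannot be told apart from length and shared span here. Of the 8 mitochondrial genes at least 2-fold lower in ju145, 5 were of complex I, 1 of complex V and 2 were ribosomal RNAs. The sum over the mitochondrial protein genes thus differed in make-up between the libraries. Complex IV made up 45.5%, 51.4% and 60.8% of it, and complex I made up 19.7%, 17.3% and 11.9%. COX3 alone made up 23.2% in wild type and 32.6% in ju145. The range from the lowest to the highest protein gene was 65.1-fold, 72.8-fold and 245-fold.

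Across the 14 mitochondrial genes the log2 ratio in ju145 was less negative for genes with a higher wild type level (Spearman's rho 0.60) and for longer genes (rho 0.53). The wild type level also enters the ratio, and genes of 1 library and 1 genome are not independent, so these are descriptions. Without ND3 they were 0.65 and 0.42. Level does not order the genes fully, since ND5 and ND4, with nearly the same wild type level as ND4L, were at 0.378 and 0.513 of wild type in ju145, against 0.219 for ND4L. ND4L is also the shortest of the 14 genes.

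**Figure D2:**
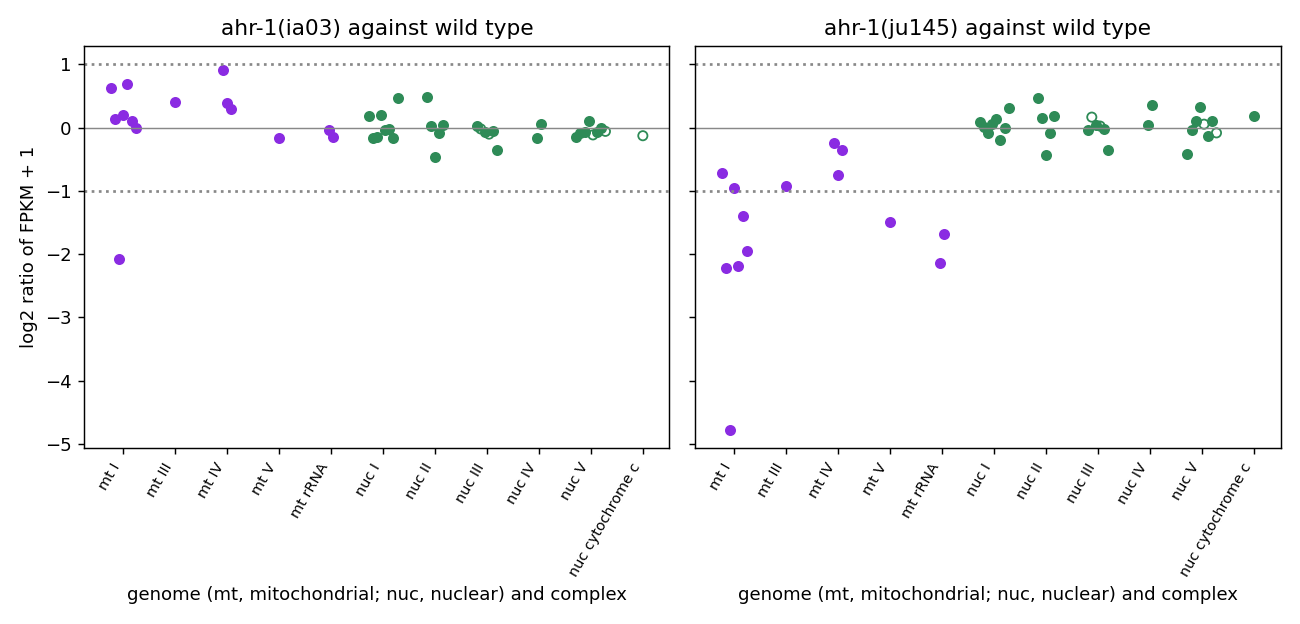
Log2 ratio of FPKM + 1 of ia03 (left) and ju145 (right) against wild type for the 44 genes by genome and complex, where filled points entered the counts, open points had a status other than OK and dotted lines mark 2-fold. In ju145 the mitochondrial genes reach from -0.25 to -4.78, while the nuclear genes stay between -0.44 and 0.47.

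The authors' deposited tables, which compare single libraries, gave a q-value under 0.05 to 9 of the 14 mitochondrial genes in ju145, all lower. In the authors' deposited table for ju145 7.63% of features with status OK had such a q-value and were lower. The authors' deposited table for ia03 gave it to 1 of 14, ND3, beside 3.41% of features. Higher with such a q-value were 0 of 14 in both, beside 1.96% in the authors' deposited table for ia03 and 0.895% in that for ju145. In the authors' deposited table for ju145 ND4 had a q-value of 0.00142 and CYTB one of 0.143, at log2 ratios of -0.96 and -0.93. No nuclear gene of the chain had a q-value under 0.05 in either of the authors' deposited tables.

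The nuclear genes of the chain differed little between the libraries. None of 25 measured in ia03 and none of 26 measured in ju145 differed by 2-fold in either direction, beside 2.52% higher and 4.26% lower features in ia03 and 1.36% and 3.54% in ju145, so a count of 0 among so few genes is close to the background. Log2 ratios ranged from -0.47 (sdha-2) to 0.49 (mev-1) in ia03 and from -0.44 (sdha-2) to 0.47 (mev-1) in ju145. The median log2 ratio was -0.05 in ia03 and 0.04 in ju145. In ju145 22 of 26 lay above the median of all measured features, and the median of the nuclear genes stood 0.22 above it. In ia03 10 of 25 did. The sign of the nuclear median in ia03 depends on the scaling, since -0.05 became 0.0136 after rescaling by the upper quartile.

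**Figure D3:**
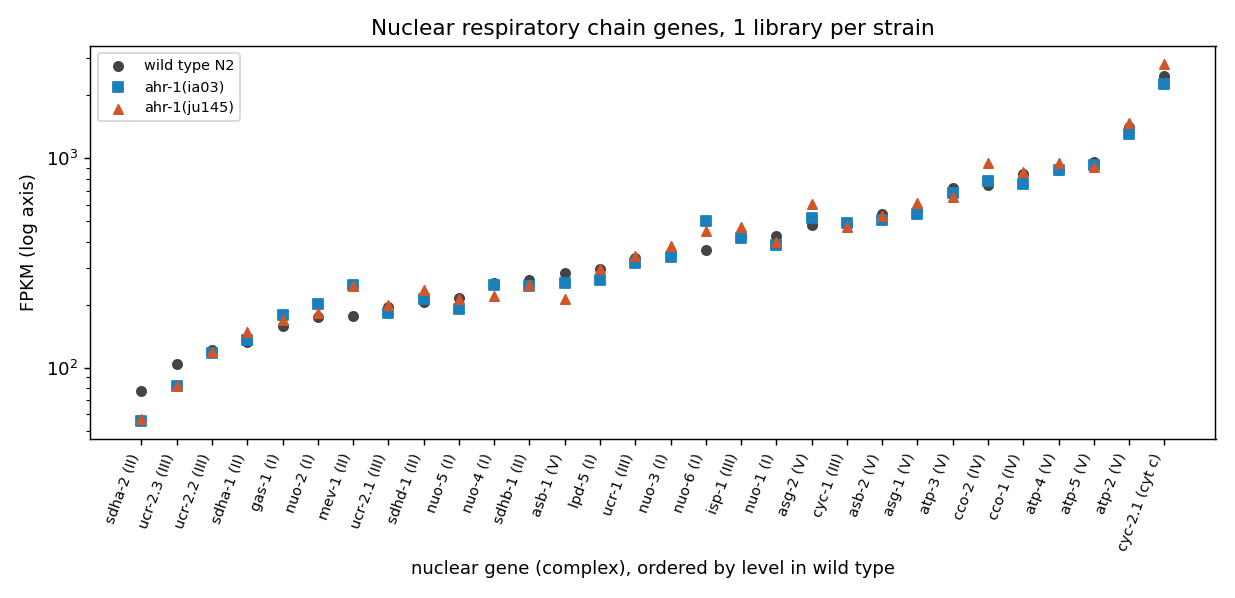
FPKM (log axis) of the 30 nuclear genes in the 3 libraries, ordered by their level in wild type with the complex in brackets. The values of the 3 libraries nearly coincide for most genes, from sdha-2 at 77.4, 55.7 and 56.8 to cyc-2.1 at 2488, 2273 and 2830.

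Among the 8 nuclear genes of complex I, nuo-6, an accessory subunit of its membrane arm, was the highest relative to wild type in both mutants. Its FPKM was 363, 504 and 452 (log2 ratios 0.47 and 0.31). lpd-5, an accessory subunit, was the lowest in ia03, at 295, 262 and 296 (log2 ratio -0.17 in ia03), and nuo-4 the lowest in ju145, at 253, 247 and 219 (-0.20). The core subunits lay between these extremes. nuo-1, the NADH-binding flavoprotein, had 424, 384 and 401, gas-1, a core subunit near the ubiquinone site, had 158, 179 and 168, and nuo-2, another core subunit, had 176, 201 and 182. The core subunit nuo-5 had 215, 192 and 214 and the accessory subunit nuo-3 had 350, 339 and 383. The loci of gas-1 and nuo-5 overlap other features in the files, up to FPKM 29.7 and 99.8 in wild type.

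Complex II, which has no mitochondrially encoded subunit, held the widest pair of nuclear values. mev-1 (chromosome III, 10334173 to 10337435), the cytochrome b subunit in which mutations sensitise worms to oxygen, had an FPKM of 177, 249 and 247, log2 ratios of 0.49 and 0.47. The locus of mev-1 overlaps ced-9, at 21.8 in wild type. sdha-2, one of the paralogous genes for the flavoprotein subunit, had 77.4, 55.7 and 56.8, log2 ratios of -0.47 and -0.44. Its paralog sdha-1 had 133, 136 and 148, with 0.03 and 0.15. The iron-sulfur subunit gene sdhb-1 had 262, 247 and 248, and the membrane anchor gene sdhd-1 had 206, 212 and 234. The mev-1 and sdha-2 values of the mutants lay close together and apart from wild type, and both mutants are set against the same wild type library.

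In complex III, ucr-2.3 was the lowest gene in both mutants, at 105, 81.6 and 82.0 (log2 ratios -0.36 and -0.35). Its relatives ucr-2.2, at 121, 117 and 119, and ucr-2.1, at 196, 182 and 199, differed less. All 3 encode core proteins of the complex. The locus of ucr-2.3 overlaps zer-1, at 43.4 in wild type, and that of ucr-2.2 overlaps col-41, at 66.6. ucr-1, a further core protein, had 333, 316 and 342, cyc-1, the cytochrome c1, had 483, 489 and 472, and isp-1, the Rieske iron-sulfur protein, had 421, 415 and 472. Cytochrome c itself, cyc-2.1, had 2488, 2273 and 2830 and was the highest of the 30 nuclear members in every library. Its locus overlaps that of the ribosomal protein gene rpl-20, at 1787 in wild type, so its reads are uncertain.

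In complex IV, cco-1, a homologue of mammalian COX5B, had 841, 752 and 861, and cco-2, a homologue of COX5A, had 748, 778 and 955 (log2 ratio 0.35 in ju145). In complex V the catalytic subunit gene atp-2 had 1417, 1307 and 1470, atp-3 (the stalk subunit that confers oligomycin sensitivity) had 720, 686 and 657, atp-4 had 882, 876 and 949, and atp-5 had 966, 926 and 911. The genes asb-1 and asb-2 are paralogs for the stalk subunit b. asb-1 (chromosome III, 4594509 to 4595912), known for its expression in the germ line, had 282, 253 and 212 (log2 ratio -0.41 in ju145), while asb-2 had 542, 509 and 528 (-0.04). The subunit g genes asg-1, at 569, 543 and 611, and asg-2, at 483, 517 and 605, were both highest in ju145. The locus of atp-4 overlaps alh-4, at 210 in wild type, and 13 of the 30 nuclear genes in all overlap another feature in the files.

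Relative to the nuclear genes, the mitochondrial genes had a median log2 ratio that differed by 0.21 in ia03 and by -1.49 in ju145. A factor common to all features of a library moves both lists alike, so this difference does not depend on scaling apart from the pseudocount. It does depend on the genes taken and the summary. In ju145 it was -0.95 without members whose locus overlaps another feature, -0.98 without those under 500 nt and -0.92 for summed FPKM. In ia03 the same alternatives gave 0.31, 0.24 and 0.35. Summed FPKM of the 14 mitochondrial genes over that of the 30 nuclear genes was 2.06, 2.61 and 1.08. The mitochondrial genes took 1.69%, 2.45% and 0.983% of the FPKM summed over all features, and the nuclear genes of the chain 0.824%, 0.936% and 0.906%. That total was itself 1782860, 1520580 and 1713200, lowest in ia03, so the shares also move with it. The sums were 30204.5, 37195.4 and 16833.8 for the mitochondrial genes and 14687, 14230.8 and 15523.9 for the nuclear genes. In complex I the mitochondrial sum was 2.65, 2.78 and 0.861 times the nuclear sum. In complex III the ratios were 3.15, 4.33 and 1.63, in complex IV 8.62, 12.4 and 5.62, and in complex V 0.898, 0.836 and 0.313. The nuclear sums hold only the members chosen by name, 2 genes for complex IV, so the ratios compare libraries and not complexes. In whole animals fewer mitochondria, fewer genome copies and less RNA per copy cannot be told apart, nor can fewer cells of a type and less RNA per cell. With 1 library per strain, a difference between strains also cannot be told apart from one between single libraries.

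**Figure D4:**
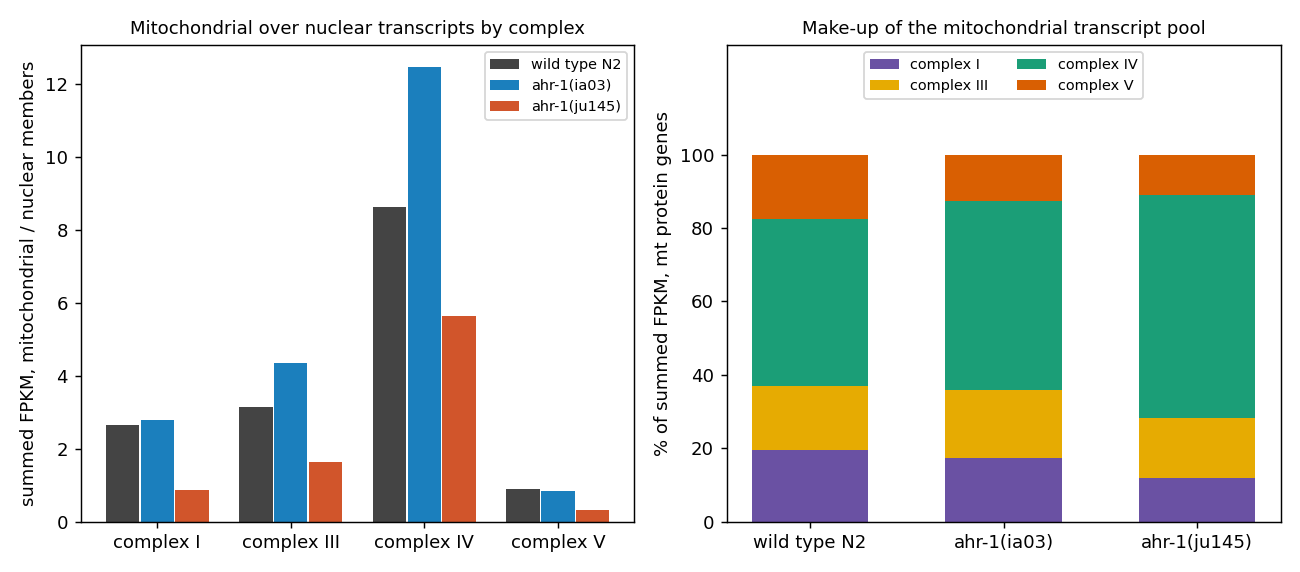
Left, summed FPKM of the mitochondrial genes over that of the nuclear genes of the same complex, in each library. Right, the share of each complex in the summed FPKM of the 12 mitochondrial protein genes. The ju145 bar is the lowest in all 4 complexes on the left, and complex IV reaches 60.8% of the ju145 pool on the right.

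Set directly against each other, the mutants differed by at least 2-fold in most mitochondrial transcripts, while no measured nuclear gene passed that limit. All 14 mitochondrial genes were lower in ju145 than in ia03, beside 70% of all measured features and 43.2% of those with a wild type FPKM of at least 100. At least 2-fold lower were 13, beside 1.28% of all measured features, and higher by that size 0, beside 1.38%, or 1.62% at that level. The exception was COX3, at a log2 ratio of -0.64. After rescaling by the median ratio or the upper quartile of all features 10 passed, since COX1, COX2 and ND4 then lay just inside the limit (-0.98, -0.97 and -0.98 by the median ratio). The median was -1.43, where that of all measured features was -0.15, and the largest differences were those of ND4L (-2.87), ND3 (-2.70) and ND2 (-2.34). None of 25 nuclear genes differed by 2-fold, beside 1.28% lower and 1.38% higher of all measured features, so this 0 is close to the background. Their log2 ratios ranged from -0.25 (asb-1) to 0.29 (cco-2), with a median of 0.05. The median of all features with a wild type FPKM of at least 100 was also 0.05. Of 1727 features with a wild type FPKM of at least 100, 15 (0.869%) were at least 2-fold lower in ju145 than in ia03, and 11 of these 15 were mitochondrial genes, of 12 mitochondrial genes at that level. The 4 others were JC8.15, T06D8.12, ZK1055.6 and Y102A11A.5. Over all levels 184 features were lower by that size, and 13 of them (7.07%) were mitochondrial.

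**Figure D5:**
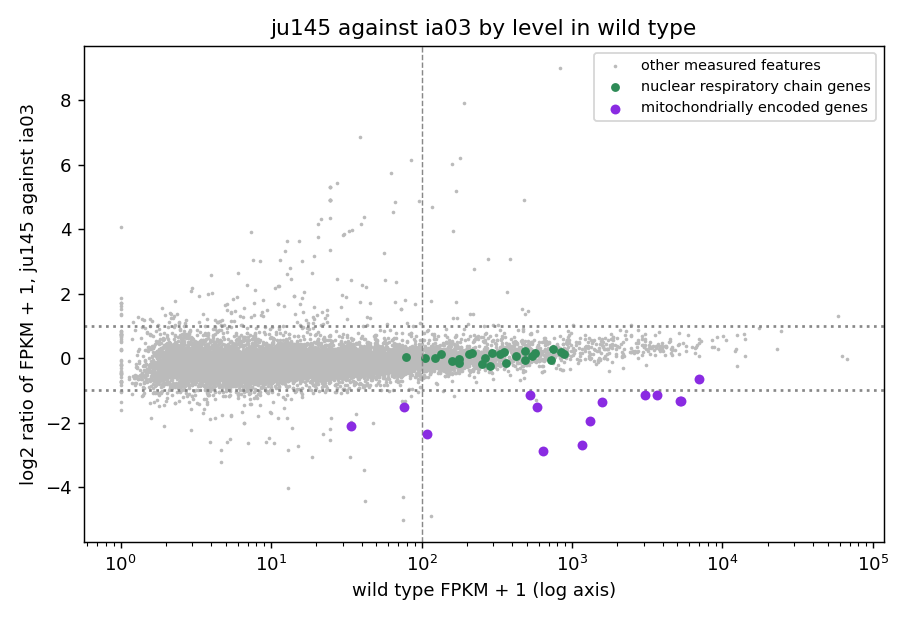
Log2 ratio of FPKM + 1 between ju145 and ia03 against wild type FPKM + 1 (log axis) for all measured features, with the respiratory chain genes in colour, dotted lines at 2-fold and a dashed line at a wild type FPKM of 100. Right of the dashed line 11 of the 15 features below the lower dotted line are mitochondrially encoded, while the nuclear genes lie between -0.25 and 0.29.

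Further genes of the same machinery were read as lists that do not overlap the members. Beside each count below stand the background shares already given, 2.52% higher and 4.26% lower in ia03 and 1.36% and 3.54% in ju145, so that a count of 0 in a list of fewer than 20 genes is close to the background. Of 18 other complex I subunit genes in the files, 17 were measured in ia03 and 16 in ju145, and none differed by 2-fold in either (medians 0.05 and 0.11). Those furthest from wild type were nduv-2 in ia03, at 385, 467 and 431, ndub-8 in ju145, at 289, 309.5 and 413, and nduf-2.2 in both, at 77.3, 64.6 and 58.9.

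A further list held 14 subunit and assembly genes of complexes III to V, which the rule did not take because the files give 13 of them no gene name and call the other tag-174. The names used here come from the annotation. None differed by 2-fold (medians -0.07 and 0.07). The ATP synthase alpha subunit gene atp-1 had 2475, 1799 and 2043, and the cytochrome oxidase subunit gene cox-6C had 1610.0, 1744 and 2478. The other genes furthest from wild type were cox-14, at 161, 190.3 and 183, and cox-18, at 25.4, 22.9 and 17.6. The ju145 library was thus the highest of the 3 for the nuclear cox-6C and cco-2, but the lowest for the nuclear cox-18. It was also the lowest for the mitochondrial COX1, COX2 and COX3. The nuclear subunit and assembly genes of complex IV therefore did not all stand one way. Of 5 other assembly genes in the files, 3 were measured in each mutant, not the same 3, and none differed by 2-fold. Among them sco-1 had 46.7, 51.6 and 42.0, nuaf-3, measured in ia03, had a log2 ratio of 0.11 there, and nuaf-1 had 24.4, 21.6 and 16.8 (measured in ju145).

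Of 7 genes that copy, read or maintain the mitochondrial genome, none differed by 2-fold in either mutant (medians 0.07 and -0.06). hmg-5, the worm homologue of the mitochondrial packaging and transcription factor TFAM, had an FPKM of 53.1, 50.6 and 42.3. The mitochondrial RNA polymerase gene rpom-1 had 17.7, 19.6 and 16.3. mma-1, a homologue of mammalian LRPPRC, which stabilises mitochondrial messenger RNA, had 53.1, 53.2 and 43.9, and nmat-2 had 14.9, 17.9 and 14.3. For hmg-5, rpom-1 and mma-1 the ju145 library was the lowest, by less than 2-fold. Of the 7 genes 5 lay below wild type in ju145 and 2 above, where 71.7% of all measured features lay below. The list median in ju145 stood 0.13 above that of all measured features.

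None of 70 measured mitochondrial ribosomal protein genes differed by 2-fold in either mutant (medians 0.13 and -0.02). The furthest from wild type in both were mrps-33, at 130.3, 183 and 185, and mrpl-54, at 93.8, 60.3 and 60.4. Of 13 measured mitochondrial translation genes none differed by 2-fold (medians 0.06 and -0.18). In ia03 the elongation factor gene tufm-2, at 68.7, 88.8 and 67.1, and the aminoacyl-tRNA synthetase gene rars-2, at 23.3, 28.0 and 20.4, were furthest. In ju145 the synthetase genes lars-2, with log2 ratios of 0.04 and -0.38, and ears-2, at 14.9, 15.5 and 10.3, were furthest.

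None of 16 genes of the mitochondrial stress response differed by 2-fold (medians -0.06 and -0.25). In each mutant 12 lay below wild type and 4 above. Of all measured features 52.5% lay below wild type in ia03 and 71.7% in ju145. ubl-5, a ubiquitin-like protein of that response, was highest in ia03, at 105, 179 and 119, with log2 ratios of 0.77 and 0.19. The mitochondrial chaperone gene hsp-6 was lower in both mutants, at 395, 314 and 303, and so was the transcription factor gene atfs-1, at 47.2, 36.3 and 36.7. The co-chaperone gene dnj-10 was lower in ju145, at 54.8, 54.4 and 39.8.

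In the import list (medians 0.09 and 0.24) no gene differed by 2-fold. The genes furthest from wild type in ia03 were timm-17B.2, at 31.0, 48.4 and 24.2, and tin-13, at 380.5, 505 and 514, and in ju145 ddp-1, at 600.1, 641 and 914, and tin-9.1, at 482, 518 and 699. timm-17B.2 was highest in ia03 and lowest in ju145. In the fusion, fission and mitophagy list (medians -0.01 and -0.31) no gene differed by 2-fold, and fis-1, a fission gene, at 33.8, 21.5 and 19.1, and dct-1, a mitophagy receptor gene, at 9.90, 8.41 and 6.47, had the lowest log2 ratios.

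Supply lists held no gene that differed by 2-fold either. In the citric acid cycle (medians -0.02 and -0.03) the furthest in ia03 were idh-2, at 46.7, 61.2 and 44.3, and sucl-2, at 122, 137 and 135, and in ju145 idhg-2, at 43.0, 42.6 and 32.2, and mdh-1, at 502, 531 and 615. In ubiquinone synthesis (0.13 and -0.04) they were coq-5, at 72.9, 84.2 and 73.4, and clk-1, at 44.6, 49.2 and 43.5, and in ju145 coq-1, at 45.1, 45.4 and 35.1, and coq-3, at 23.1, 25.3 and 28.0. Among pyruvate dehydrogenase and carrier genes (0.00 and -0.12) the adenine nucleotide carrier genes ant-1.3, at 123, 74.2 and 71.4, and ant-1.4, at 94.7, 60.4 and 68.4, had the lowest log2 ratios. In glycolysis (-0.08 and -0.10) pfk-1.2, at 13.1, 8.16 and 7.69, and gpd-4, at 79.4, 54.9 and 65.6, were lower in both mutants, and the lactate dehydrogenase gene ldh-1, at 136, 157 and 187, was highest in ju145.

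Levels of tissue markers were read beside these results, since the libraries come from whole animals. Pairs of values in brackets are log2 ratios in ia03 and ju145. Of all measured features 52.5% lay below wild type in ia03 and 71.7% in ju145, which are the shares to set beside counts of markers. Muscle markers, from a tissue rich in mitochondria, summed to an FPKM of 10416, 9527 and 10888, with median log2 ratios of -0.16 and -0.01 and none of 8 at 2-fold. The lowest in ia03 were unc-54 (-0.22 and 0.01) and unc-15 (-0.25 and -0.00), and the highest in ju145 were act-4 (0.01 and 0.33) and tnt-2 (-0.01 and 0.16). Germline markers summed to 1628, 1352 and 1462, with medians of -0.30 and -0.23, all 6 measured below wild type in ia03 and 6 of 7 in ju145, none by 2-fold. In ju145 the germline median differed from that of all measured features by only -0.05, and 3 of 7 germline markers lay above the latter. Their furthest values were gld-1 (-0.48 and -0.12), pgl-1 (-0.37 and -0.34) and glp-1 (-0.18 and -0.35). Sperm markers summed to 3231, 1706 and 2258, with medians of -0.72 and -0.54, and all 8 were below wild type in both mutants. Only msp-3 (-1.06 and -0.44) passed 2-fold, in ia03, and the other furthest were msp-19 (-0.98 and -0.65), spe-11 (-0.82 and -0.97) and spe-38 (-0.54 and -0.71).

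Sums of the other marker lists rest on a few abundant genes. Neuron markers summed to 300, 307 and 311, with medians of 0.09 and -0.09. In ju145 5 of 7 lay below wild type, close to the 71.7% of all measured features. The furthest in either mutant were snt-1 (0.27 and -0.09), ric-4 (0.17 and -0.05), sng-1 (0.16 and 0.27) and rab-3 (-0.04 and -0.21). Intestine markers summed to 3592, 3929 and 4898, with medians of 0.03 and -0.05. That sum follows asp-1 (0.15 and 0.53) and act-5, which had the status FAIL, while elt-2 had 0.06 and 0.15 and elt-7 had 0.03 and -0.51. Hypodermis markers summed to 2780, 2955 and 3219, with medians of 0.32 and 0.13. In ia03 6 of 7 measured lay above wild type, among them sqt-3 (0.73 and 0.52), col-17 (0.56 and 0.48) and dpy-13 (0.41 and 0.52), while the abundant col-12 lay below it (-0.49 and -0.06). dpy-7, at 54.5, 161 and 111, had the status FAIL and was not counted. No marker found in the files was listed at 0. Germline and sperm sums were lowest in ia03, where the mitochondrial sum was highest. The part of the markers in the mitochondrial result was not tested.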

How the data were processed

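One messenger RNA library per strain was measured. The labels' protocols name TRIzol extraction, removal of DNA and an Illumina preparation kit. The submitters' processing notes list Cufflinks 1.3.0, Cuffdiff, TopHat 1.3.1, Bowtie2 2.0.2, SAMtools 0.1.16 and FastQC without saying what each did. The authors deposited FPKM for each mutant and wild type, per the file headers, and a p-value and q-value that compare single libraries. Both tables hold the same wild type values. FPKM corrects poorly for features near the fragment length, and a few abundant RNAs lower all others. Log2 ratios used a pseudocount of 1, a floor of FPKM 1 and status OK, computed with Python 3.11.15, numpy 2.4.6 and pandas 2.3.3 (Spearman's rho with scipy 1.17.1, figures with matplotlib 3.10.9). The size rule was tested on simulated data. The planted changes were far larger than the simulated noise, so that test could hardly fail. It does not show how the rule behaves with the unknown noise of these libraries. Names and exon lengths came from the Ensembl release 115 and RefSeq annotations of WBcel235, and 44880 features matched. The rule for naming took all mitochondrial genes, the nuclear extremes of each complex in each mutant, paralogs, and from each other list the 2 measured genes with the largest absolute log2 ratio in each mutant. The remaining members, and act-5, tag-174, dpy-7 and col-12, were named outside it. Members and lists were chosen with earlier results of these data known. Nuclear coordinates mostly differ between the annotation and the files, so those printed are the files' own. Mitochondrial genes were named by overlap with RefSeq and the ribosomal RNA genes by length. JC8.15, T06D8.12, ZK1055.6 and Y102A11A.5 were named after their values were seen. With 1 library per strain no interval or test was possible, and the precision of single values is unknown, because the tables hold no read counts.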

Additional observations from a re-analysis of the deposited data

Results flagged for a closer look

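The mitochondrial genes differed from wild type in opposite directions in the mutants, judged by their medians, and this difference was not tested, since each mutant is 1 library. The ia03 side was small, with a median log2 ratio of 0.16, 9 genes above wild type and 5 below, and none 2-fold higher. In ju145 the median was -1.45. The median log2 ratio of ju145 against ia03 was -1.43 for all 14 genes, -1.34 for the 12 protein genes and -1.95 for the 7 genes of complex I. Single genes above wild type in ia03 and below it in ju145, with at least 2-fold between the mutants, were 8 in number. The share of all features with this pattern was not computed. Of all measured features 1.28% were at least 2-fold lower in ju145 than in ia03. The log2 ratios of ju145 against ia03 were -1.35 for ND1, -2.34 for ND2, -1.16 for ND4, -2.87 for ND4L and -1.50 for ND5. They were -1.34 for CYTB, -1.16 for COX1 and -1.14 for COX2. After rescaling by the median ratio or the upper quartile of all features, COX1, COX2 and ND4 lay inside 2-fold (-0.98, -0.97 and -0.98 by the median ratio), which leaves 5 of the 8.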

How the results depend on the processing

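The alternatives were pseudocounts of 0.1 and 5, a floor of 5 or none, libraries rescaled by median ratio or upper quartile, features of any status, size limits of 1.5-fold and 4-fold, and subsets of the members. The median of the mitochondrial genes stayed between -1.45 and -0.95 in ju145 and between 0.16 and 0.24 in ia03, and that of ju145 against ia03 between -1.43 and -1.25. The only median that changed sign was that of the nuclear genes in ia03, at 0.0136 after rescaling by the upper quartile. Counts moved by over 1.5 times as follows. At 1.5-fold, 3 mitochondrial genes were higher in ia03. At 4-fold, 4 were lower in ju145 than in wild type and 4 than in ia03. The shares of all features at 1.5-fold and 4-fold were not computed, so these counts cannot be set against a background. Without members whose locus overlaps another feature, 8 mitochondrial genes were left, of which 0 were 2-fold lower in ia03, 3 in ju145 and 7 in ju145 against ia03. Without genes under 500 nt, 11 were left, of which 0 were lower in ia03 and 5 in ju145. With genes of a shared span pooled, chosen after the data were seen, 0 were lower in ia03. Fewer genes are counted in each subset. After either rescaling, 10 mitochondrial genes in place of 13 were 2-fold lower in ju145 than in ia03. The mitochondrial minus the nuclear median lay between 0.21 and 0.35 in ia03 and between -1.49 and -0.92 in ju145. The nuclear genes had 0 differences of 2-fold under each alternative with that limit. No paired analysis was possible because each group has 1 library. The depth behind single values is not known.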
